A study of Homo sapiens with 12 samples.

Results

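Nuclear copies of mitochondrial genes are stretches of the mitochondrial genome that were inserted into the nuclear chromosomes and are annotated as pseudogenes. They were taken here as every gene ID of the HT29 count table whose GENCODE symbol is that of a numbered pseudogene of an ND, CO, CYB, ATP or RNR gene and which does not lie on chromosome M, which gave 391 of 60675 IDs. Of these copies, 299 had a count of 0 in all 12 libraries, 71 had a total count above 0 and under 10, and 21 had 10 or more counts over the 12 libraries together. The 21 copies are described below beside the chromosome M gene from which each derives, called its parent. The annotation used here lists no rRNA copy and no MTRNR2L gene under a matching symbol, so those genes are not analysed here.

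HT29 is an established human colorectal adenocarcinoma cell line. The cells were exposed for 24 h to vehicle (phosphate-buffered saline with 2% DMSO) or to a water extract of *Aconitum carmichaeli* Debeaux (ACD) at 20 µg/mL (low), 100 µg/mL (medium) or 500 µg/mL (high), with 3 libraries in each group. Per the paper, the extract stock was made up in saline with the same share of DMSO. The 2% is that of the solution added to the medium, not of the culture. The sample titles and the paper name ACD, whereas the treatment note in the sample labels describes an extract of *Poria cocos*, and the groups are named here after the titles. No label says whether the 3 libraries of a group came from separate cultures, so the p-values measure only the spread between these libraries, which may be technical.

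Mitochondrial DNA encodes subunits of the respiratory chain and of ATP synthase, and both of its strands are transcribed into long precursors that are cut into mRNAs and rRNAs. Pieces of it have entered the nuclear genome repeatedly during primate evolution, and the pieces have since accumulated substitutions because they no longer encode a working protein. A recent copy can therefore be almost identical to its parent, and a short read from one may also align to the other. The counts in the table are estimates made by RSEM, which divides a read with several matching positions between the genes by likelihood. Counts of copies and parents with near-identical sequence are therefore uncertain, and a count listed under a copy does not by itself place the transcript at the nuclear locus.

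Each copy was aligned to chromosome M of the same build (hg38), and 377 of the 391 copies aligned. The identity over the aligned bases ranged from 65.2% to 99.15%, with a median of 74.63%, and was 95% or more in 11 copies. Windows of 100 bases, the length of a sequencing read, were compared letter by letter with chromosome M on both strands. Only 6 copies held a window identical to chromosome M, and these 6 lie close together on chromosome 1. MTATP8P1, which lies among them, had 108 windows and none identical to chromosome M. Reads were sequenced in pairs, so a fragment covers more bases than 1 window. All differences are counted against the hg38 reference. The mitochondrial sequence of the HT29 cells was not examined and may differ from it, also at sites that separate copy and parent.

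The sequences below show how closely the 4 copies with the highest counts match their parents, and the last pair shows a diverged copy for contrast. Each is the window of 100 bases with the most differences from the parent within the aligned part of that copy, read from hg38 in the direction of the copy, and capitals mark the bases that differ between the copy and its parent.

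MTATP6P1, chr1:633788-633887 (plus strand): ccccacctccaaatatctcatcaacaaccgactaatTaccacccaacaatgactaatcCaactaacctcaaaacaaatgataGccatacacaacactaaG
MT-ATP6, chrM:8619-8718 (plus strand): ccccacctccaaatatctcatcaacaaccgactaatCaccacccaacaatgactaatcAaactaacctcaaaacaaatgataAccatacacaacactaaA
MTND2P28, chr1:630062-630161 (plus strand): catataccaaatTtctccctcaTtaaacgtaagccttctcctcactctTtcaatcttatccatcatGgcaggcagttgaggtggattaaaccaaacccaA
MT-ND2, chrM:4892-4991 (plus strand): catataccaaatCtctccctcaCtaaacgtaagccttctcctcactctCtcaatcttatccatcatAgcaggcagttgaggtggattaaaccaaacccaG
MTCO1P12, chr1:631370-631469 (plus strand): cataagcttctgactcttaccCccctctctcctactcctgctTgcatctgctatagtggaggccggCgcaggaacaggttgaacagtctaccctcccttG
MT-CO1, chrM:6200-6299 (plus strand): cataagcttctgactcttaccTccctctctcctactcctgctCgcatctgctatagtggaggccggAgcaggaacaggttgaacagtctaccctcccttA
MTND4P12, chr5:134927851-134927950 (minus strand): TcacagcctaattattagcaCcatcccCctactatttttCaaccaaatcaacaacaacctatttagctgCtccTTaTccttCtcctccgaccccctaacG
MT-ND4, chrM:10846-10945 (plus strand): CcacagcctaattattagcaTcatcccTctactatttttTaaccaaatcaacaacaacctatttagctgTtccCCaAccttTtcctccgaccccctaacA
MTCO1P28, chr16:3369079-3369178 (minus strand): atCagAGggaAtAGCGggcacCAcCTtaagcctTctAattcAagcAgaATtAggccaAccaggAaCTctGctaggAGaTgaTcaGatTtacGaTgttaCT
MT-CO1, chrM:5975-6074 (plus strand): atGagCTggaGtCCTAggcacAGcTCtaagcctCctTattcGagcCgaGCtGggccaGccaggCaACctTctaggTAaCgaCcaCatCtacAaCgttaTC

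The most different window of MTATP6P1 had 4 differences, that of MTND2P28 had 5 and that of MTCO1P12 had 4. Even there, the reference sequences give a read few bases to tell copy and parent apart. The MTND4P12 window had 10 differences, and the window of the diverged copy MTCO1P28 had 34. Over the whole aligned length MTATP6P1, which derives from the ATP synthase subunit gene MT-ATP6, had 10 mismatches in 681 bases (98.53% identity), and 69 of its 582 windows (11.86%) were found on chromosome M. MTND2P28, from the complex I subunit gene MT-ND2, had 17 mismatches in 1044 bases (98.37%), with 246 of 945 windows (26.03%) found there. MTCO1P12, from the cytochrome c oxidase subunit gene MT-CO1, had 20 mismatches in 1543 bases (98.64%), with 402 of 1444 windows (27.84%) found there. MTND4P12, from the complex I subunit gene MT-ND4, had 58 mismatches in 1376 bases (95.78%) and no window in common with chromosome M.

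The counts of the copies were held by very few of them. The 391 copies had 307082.6 counts in all, of which MTATP6P1 held 79.32%, MTATP6P1 and MTND2P28 together 95.03%, and the 4 copies named above 99.65%. MTATP6P1 had 243592.9 counts over the 12 libraries, MTND2P28 had 48214.58, MTCO1P12 had 12467.53 and MTND4P12 had 1730.94. The next copy, MTND1P23, had 177.02 counts.

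**Figure D1:**
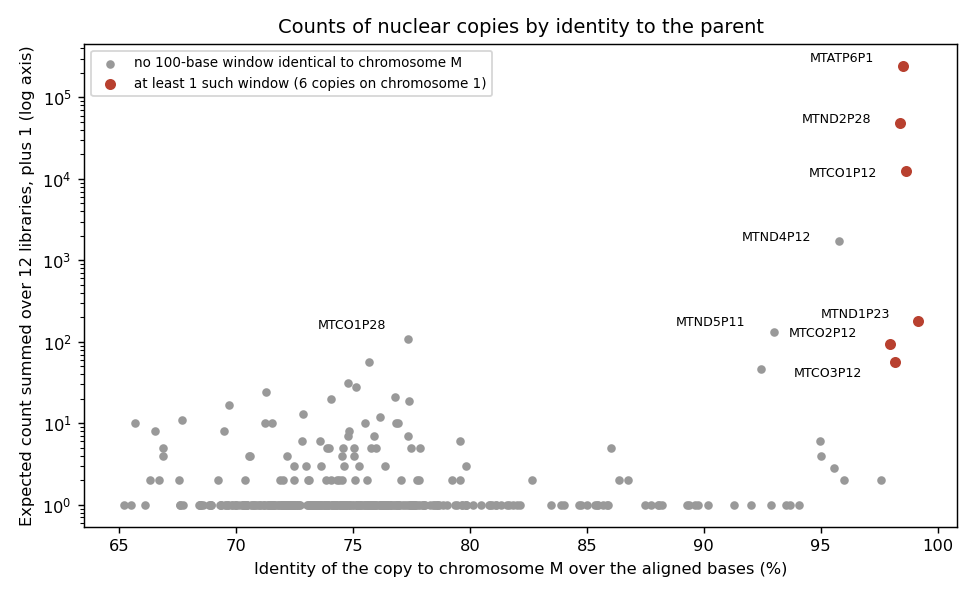
Each point is 1 of the 377 aligned copies, with its identity to chromosome M over the aligned bases (x axis, percent) against its expected count summed over the 12 libraries plus 1 (y axis, log scale); red points hold at least 1 window of 100 bases identical to chromosome M. The 3 highest points, MTATP6P1, MTND2P28 and MTCO1P12, are red and lie at 98.37% to 98.64% identity, whereas red MTND1P23, MTCO2P12 and MTCO3P12 lie below 200 counts.

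Copies of high identity more often had counts, but a high identity alone was not enough for a high count. Among the 21 copies with 10 or more counts the identity ranged from 67.69% to 99.15% (median 77.33%) and 7 were at 95% or more. Among the 71 copies with fewer counts the median was 74.6% and 4 reached 95%, MTATP8P1, MTCO1P40, MTCO2P2 and MTND6P4, which are named because of their identity. Among the copies at 0 in every library the median was 74.48% and the highest identity was 94.06%. A count of 0 shows only that RSEM assigned no read to that copy.

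The 21 copies fall into 7 blocks, where a block is a run of neighbouring copies less than 20000 bases apart. There are 141 such blocks of copies in all. The block with nearly all counts spans 5861 bases of chromosome 1 (chr1:629062-634922) and holds MTND1P23, MTND2P28, MTCO1P12, MTCO2P12, MTATP8P1, MTATP6P1 and MTCO3P12 in the gene order of the mitochondrial genome. Its 6 copies with 10 or more counts had 304600.82 counts together. MTND2P28 lies at chr1:629640-630683, MTCO1P12 at chr1:631074-632616 and MTATP6P1 at chr1:633696-634376, all on the plus strand. The copies with 10 or more counts in this block lie within a pseudogene annotated on the opposite strand (ENSG00000230021), which had 47.84 counts in all.

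Neighbours within this insertion differed strongly in their counts. MTCO2P12, which lies between MTCO1P12 and MTATP6P1, had 93.38 counts at an identity of 97.95%, and 14 of its 583 windows (2.4%) were found on chromosome M. MTCO3P12, which shares its first base with the last base of MTATP6P1, had 55.41 counts at 98.17%, with 30 of 448 windows (6.7%) found there. MTND1P23 had the highest identity of all copies (99.15%), 95 of its 273 windows (34.8%) on chromosome M, and only 177.02 counts. Neither the identity nor the share of identical windows ranked these 6 copies in the order of their counts.

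**Figure D2:**
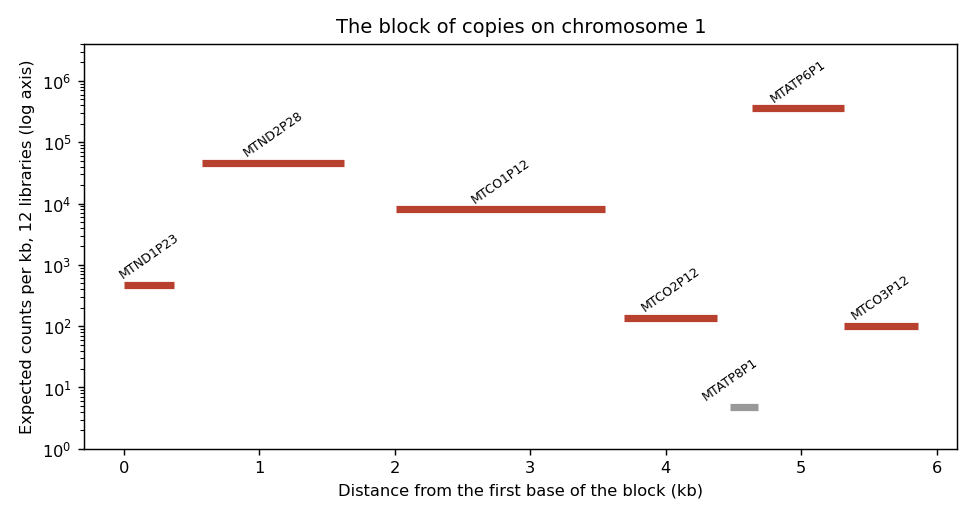
The 7 copies of the chromosome 1 block, each drawn as a line from its first to its last base (x axis, distance from the first base of the block in kb) at its expected counts per kb summed over 12 libraries (y axis, log scale); red marks copies with 10 or more counts and grey MTATP8P1, which had 1.0 count. MTATP6P1 stands highest and its neighbours MTATP8P1, MTCO2P12 and MTCO3P12 are the lowest lines of the block.

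The second block spans chr5:134923303-134928527 and holds MTCYBP18, MTND5P11 and MTND4P12, with 1908.94 counts. MTND4P12 lies at chr5:134926660-134928036 on the minus strand, within an intron of PCBD2, a gene on the opposite strand whose protein acts in the recycling of tetrahydrobiopterin and as a dimerisation cofactor of HNF1 transcription factors. The library kit keeps the strand, but the strand setting used for counting is not given in the sources used here, so reads of MTND4P12 and of unspliced PCBD2 RNA may not be separable. The other 5 blocks had 162 counts on chromosome 16, 87 on chromosome 2, 50 on chromosome 17, 26 on chromosome X and 23 on chromosome 4.

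By parent, the 391 copies are of 13 mitochondrial mRNA genes, from 47 copies of MT-CO1 to 2 of MT-ATP8. Copies with 10 or more counts were 4 of the 35 of MT-ND4, 3 of the 47 of MT-CO1, 3 of the 34 of MT-ND1, 3 of the 37 of MT-ND5, 2 of the 25 of MT-ATP6, 2 of the 33 of MT-ND2, 2 of the 37 of MT-CO3, 1 of the 29 of MT-CO2 and 1 of the 42 of MT-CYB. Copies of MT-ND3, MT-ND4L, MT-ND6 and MT-ATP8 did not reach 10 counts.

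The libraries had 15941255 to 33866644 counts (median 23833237). Markers of colon epithelium were present in all groups (10 of 10 above 1 CPM, a count divided by its library total and scaled to a common size with edgeR's TMM factors, with a summed level of 11000 to 13100 CPM), and 14 markers of leukocytes, fibroblasts, endothelium and astrocytic cells summed to 5.63 to 8.86 CPM, with 1 of them at 0 and 3 above 1 CPM. The mitochondrial rRNA genes held 0.982% to 1.219% of the counts in vehicle and low dose libraries, 1.96% to 2.177% at the medium dose and 11.272% to 12.517% at the high dose, and the part of this in the results below was not tested. High dose replicate 2, the shallowest library, stood apart on the first principal component (-70.7, against -14.7 to 14.5 for the others), and values that rest on it are also given without it.

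Levels of copies and parents can be compared per length, as CPM per kb of exon. In vehicle cells MTATP6P1 was at 1529 CPM per kb and MT-ATP6 at 11120. MTND2P28 was at 117.8 and MT-ND2 at 3681 CPM per kb, MTCO1P12 at 33.14 and MT-CO1 at 11050, and MTND4P12 at 8.502 and MT-ND4 at 7466. Every one of these copies was below its parent, and the order of the copies was not that of the parents.

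MTATP6P1 had 1194, 1004 and 925.2 CPM in the 3 vehicle libraries, 934.7, 879.1 and 768.9 in low dose libraries, 1008, 783.2 and 751.9 in medium dose libraries, and 561.4, 626.5 and 391.9 in high dose libraries. All high dose libraries lay below all others, while the vehicle, low and medium groups overlapped. The mean was 1041 ± 138.5 CPM in vehicle and 526.6 ± 121.1 CPM at the high dose (SD, n = 3). With edgeR's quasi-likelihood test on all 12 libraries, MTATP6P1 fell by 0.98 on the log2 scale at the high dose (SE 0.173, a 1.98-fold lower level, adjusted p = 0.00528, Benjamini-Hochberg over the 15374 genes tested). It did not pass the test at the medium dose (log2 fold change -0.30, adjusted p = 0.552 by edgeR) or at the low dose (-0.27, adjusted p = 0.752).

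MT-ATP6 itself fell at the high dose by 1.29 on the log2 scale (SE 0.227, adjusted p = 0.00523 by edgeR). Vehicle libraries had a mean of 7575 ± 923.4 CPM and high dose libraries one of 3097 ± 698.5 CPM (SD, n = 3). At the low dose the parent was at 10380, 6058 and 5699 CPM, so low dose replicate 1 was well above the other two, whereas MTATP6P1 in that library was at 934.7 CPM, near the others.

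MTND2P28 followed another pattern over the doses. It had 101.5, 121 and 146.5 CPM in vehicle libraries, 219.7, 154 and 145.5 in low dose, 242.3, 251 and 229.2 in medium dose, and 119.4, 88.62 and 78.61 in high dose libraries. The medium dose libraries lay above all others, and the high dose libraries overlapped vehicle. The means of vehicle, medium and high dose were 123 ± 22.56, 240.8 ± 10.98 and 95.56 ± 21.28 CPM (SD, n = 3). MTND2P28 rose at the medium dose by 0.97 on the log2 scale (SE 0.185, 1.96-fold, adjusted p = 0.028 by edgeR) and did not pass at the low dose (0.49, adjusted p = 0.518) or the high dose (-0.36, adjusted p = 0.306).

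The medium dose call of MTND2P28 depended on the libraries. It was lost when vehicle replicate 1, vehicle replicate 2 or any of the 3 medium dose libraries was left out, with log2 fold changes of 0.85 to 1.01 and adjusted p of 0.0972 to 0.146 (edgeR). Its parent MT-ND2, at 4079, 3418 and 4011 CPM in vehicle libraries, had 6318, 6109 and 5579 CPM in medium dose and 2883, 2409 and 2187 CPM in high dose libraries. The medium dose libraries of MT-ND2 were all above vehicle and the high dose libraries all below it. MT-ND2 did not pass the test at the medium dose (log2 fold change 0.65, adjusted p = 0.266 by edgeR) or the high dose (-0.62, adjusted p = 0.134). Without low dose replicate 1, whose MT-ND2 level of 6625 CPM was far above the 3651 and 3245 CPM of its group, MT-ND2 passed at both doses (0.65 and -0.61, adjusted p = 0.0411 and 0.0183 by edgeR).

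MTCO1P12 had 48.15, 49.2 and 56.05 CPM in vehicle libraries, 49.71, 46.54 and 43.55 under the low dose, 51.3, 38.47 and 38.51 under the medium dose, and 24.42, 46.26 and 15.99 under the high dose. All high dose values were below vehicle, but replicate 2 was close to the vehicle level. The log2 fold change at the high dose was -0.85 (SE 0.279) and did not pass the test (adjusted p = 0.103 by edgeR). Without high dose replicate 2 it was -1.36 with an adjusted p of 0.00117. MT-CO1, at 10190, 9299 and 6574 CPM at the high dose, was low in all 3 libraries, and it fell by 0.97 on the log2 scale (adjusted p = 0.00422 by edgeR) from 17040 ± 816.1 CPM in vehicle (SD, n = 3).

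MTND4P12 varied most among the vehicle libraries, at 20.09, 9.188 and 5.844 CPM. Low dose libraries had 4.726, 4.921 and 3.251 CPM, medium dose libraries 4.992, 6.3 and 3.54 CPM, and high dose libraries 2.229, 5.677 and 1.906 CPM. The low and high dose libraries were all below vehicle, by a small margin from vehicle replicate 3. It fell at the high dose by 1.93 on the log2 scale (SE 0.473, a 3.82-fold lower level, adjusted p = 0.0331 by edgeR) and did not pass at the medium dose (-1.21, adjusted p = 0.292) or the low dose (-1.41, adjusted p = 0.384).

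The size of the MTND4P12 change rested in large part on vehicle replicate 1. Without that library the log2 fold change at the high dose was -1.33 (adjusted p = 0.118 by edgeR). The call was also lost without vehicle replicate 2, low replicates 1 or 2, medium replicates 1 or 2, or high replicates 1 or 3, with adjusted p from 0.0511 to 0.126. MT-ND4, at 11080, 9072 and 10710 CPM in vehicle libraries and 4301, 3409 and 2471 at the high dose, did not share the spread of its copy in vehicle, and it fell by 1.60 on the log2 scale (adjusted p = 0.000968 by edgeR). The gene around the copy, PCBD2, was at 9.423 ± 0.6139 CPM in vehicle and 6.732 ± 0.9313 CPM at the high dose (SD, n = 3), a log2 difference of -0.49 (adjusted p = 0.0238 by edgeR) that is below the 1.5-fold minimum.

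**Figure D3:**
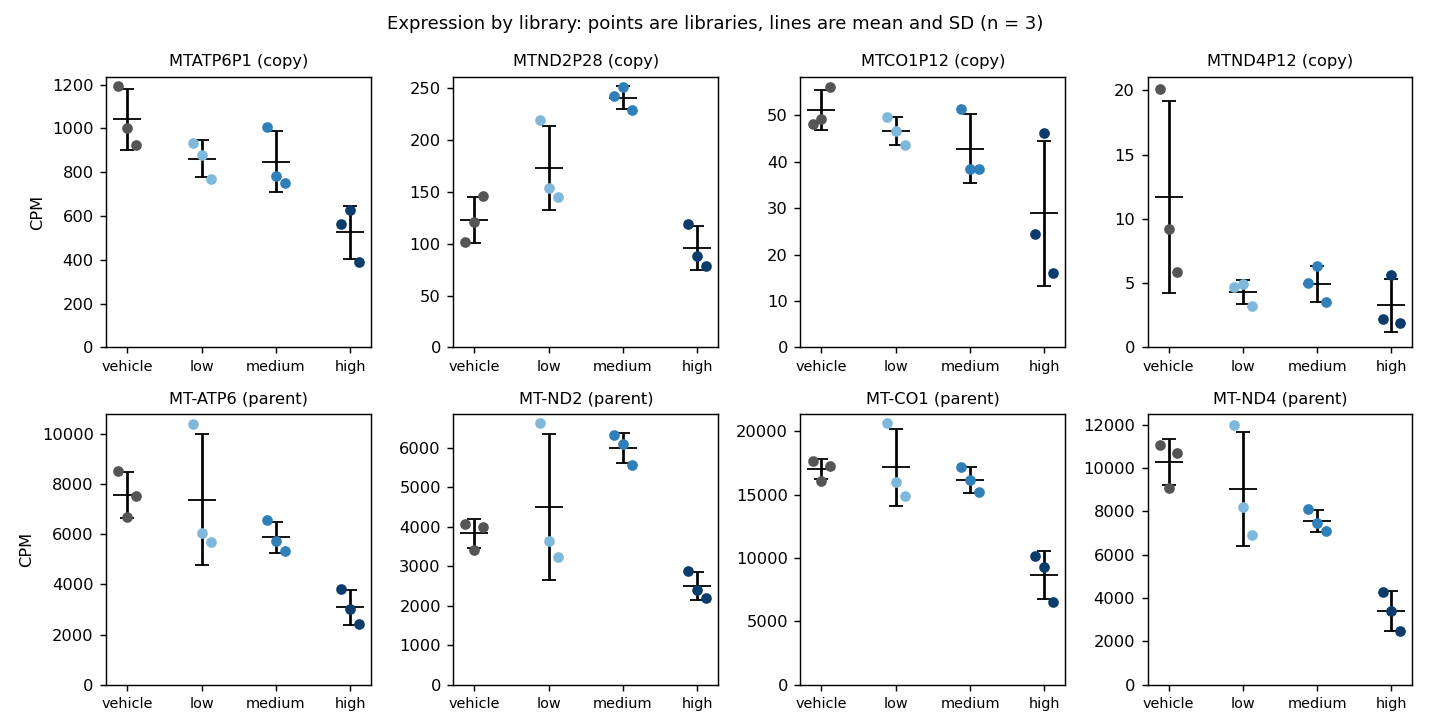
CPM (y axes, linear from 0) of the 4 copies with a mean of at least 1 CPM (upper row) and of their chromosome M parents (lower row) in each group (x axes); points are the 3 libraries of a group and black lines the mean and SD. The high dose libraries of MTATP6P1 (391.9 to 626.5 CPM) lie below all others, the medium dose libraries of MTND2P28 (229.2 to 251 CPM) lie above all others, and MTND4P12 is highest in vehicle replicate 1 (20.09 CPM).

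Only 8 of the 391 copies had enough counts to pass edgeR's expression filter. Among them, MTCO2P12 passed mainly through its vehicle libraries (12.83, 20.14 and 10.36 counts). Its lower values at the doses therefore follow in part from the filter, wherever it is counted below. MTCO1P28 passed through low replicate 2, medium replicate 3 and high replicate 1 (12, 16 and 11 counts) and not through vehicle (1, 9 and 8 counts). Its higher values at the doses likewise follow in part from the filter. At the high dose, 2 of these 8, MTATP6P1 and MTND4P12, fell past both thresholds, 0.05 for the adjusted p and 1.5 for the fold change, and none rose, where 2.93% of the 15374 genes tested were called at this dose in either direction and 1.68% fell. The number called was 4 without high dose replicate 2, which added MTCO1P12 and MTCO2P12, and 1, MTATP6P1, without vehicle replicate 1 or 2, low replicate 1 or 2, medium replicate 1 or 2, or high replicate 3. The median log2 fold change of the 8 copies was -0.92, against 0.005 for all genes tested. Of the 15 chromosome M genes, 8 mRNAs fell and both rRNAs rose at the high dose. At the medium dose 1 copy, MTND2P28, rose and none fell, where 0.384% of all genes rose and 0.676% moved either way. At the low dose 0 copies were called by edgeR, where 0.111% of all genes were called. Counting unadjusted p under 0.05, 7.95% of all genes passed at the low dose, and so did MTND2P28, MTND4P12 and MTCO2P12. DESeq2 also called 0 copies at the low dose.

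The other 4 tested copies were below 1 CPM in every library, and they are named because they complete the set of 8. MTCO2P12, from a cytochrome c oxidase subunit gene, had 43.3 counts in the vehicle libraries together and 7.9 at the high dose, with a log2 fold change of -2.25 (adjusted p = 0.0663 by edgeR). MTND1P23 had 54.5 and 20.2 counts, with -1.32 (adjusted p = 0.14 by edgeR). MTND5P11, the neighbour of MTND4P12 from the complex I subunit gene MT-ND5, had 42 and 23 counts, with -0.72 (adjusted p = 0.216 by edgeR). MTCO1P28, the diverged copy on chromosome 16, had 18 and 25 counts, with 0.58 (adjusted p = 0.592 by edgeR). None of the 4 passed the test.

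In 6 of the 8 tested copies all high dose libraries were below all vehicle libraries, where 11.5% of all genes were. The exceptions were MTND2P28 and MTCO1P28, which overlapped vehicle. The chromosome M mRNAs were also below vehicle in all high dose libraries, except MT-ND6 and MT-CYB, which overlapped it. At the medium dose only MTND2P28 was above vehicle in all libraries (14.6% of all genes were) and only MTND5P11 was below (14.1%). At the low dose MTND4P12, MTND5P11 and MTCO2P12 were below vehicle in all libraries (9.59% of all genes were). MTCO2P12 is counted at the high and the low dose, although it passed the filter mainly through vehicle.

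**Figure D4:**
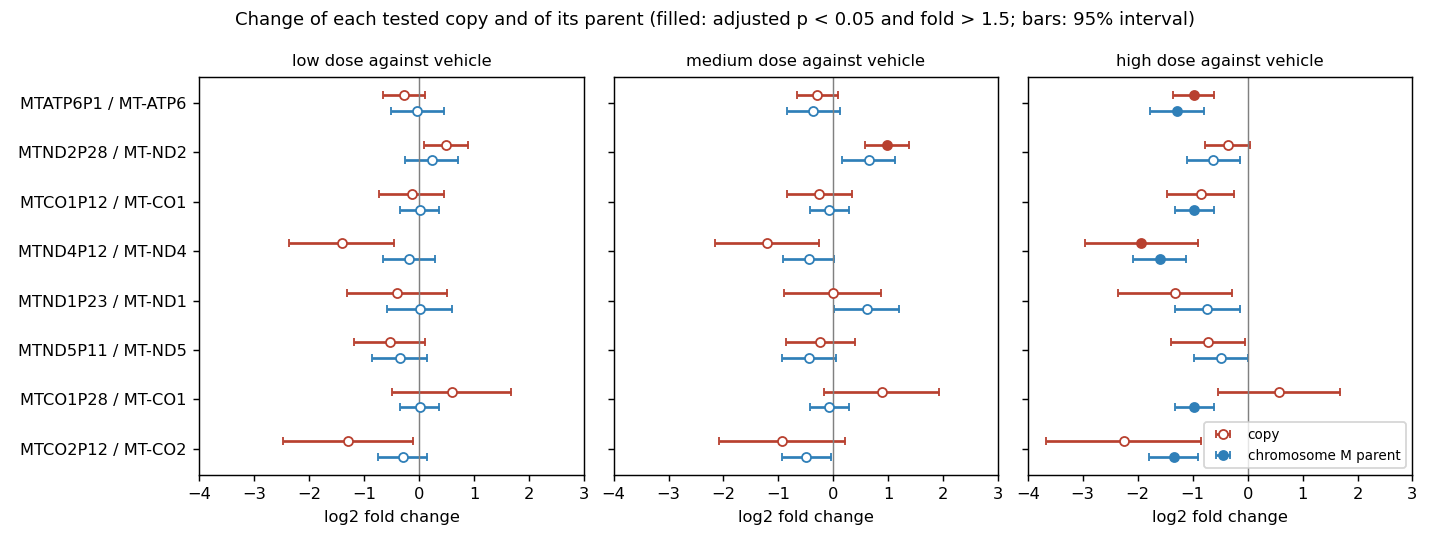
Log2 fold change against vehicle (x axes) of the 8 tested copies (red) and of their parents (blue) at the low, medium and high dose, with 95% intervals from the edgeR fit; filled points passed an adjusted p of 0.05 and a fold change of 1.5. Filled copies are MTND2P28 at the medium dose (0.97) and MTATP6P1 (-0.98) and MTND4P12 (-1.93) at the high dose, and MTCO1P28 is the only copy to the right of 0 at the high dose (0.58). MTCO1P28 passed the filter through dosed libraries and not through vehicle.

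A test over the rank of the dose (vehicle, low, medium, high) used all 12 libraries. MTATP6P1 fell by 0.29 per rank (adjusted p = 0.014 by edgeR) and MTND4P12 by 0.59 per rank (adjusted p = 0.0361), the 2 of 8 copies called, where 2.98% of all genes had a falling trend and 5.74% a trend in either direction. MTND4P12 was not called in the trend without vehicle replicate 1 (-0.36 per rank, adjusted p = 0.147 by edgeR), and also not without vehicle 2, medium 1, medium 3, high 1 or high 3 (adjusted p from 0.0512 to 0.115). Without high dose replicate 2, MTCO1P12 (-0.36 per rank, adjusted p = 0.0358 by edgeR) and MTCO2P12 were called as well.

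The doses were also compared with each other in the same fit. MTND2P28 was lower at the high than at the medium dose by a log2 difference of -1.33 (adjusted p = 0.00444 by edgeR), the 1 copy called where 0.488% of all genes were, and MT-ND2 differed by -1.27 (adjusted p = 0.0192). Between high and low dose MTND2P28 differed by -0.86 (adjusted p = 0.0272 by edgeR) and MTATP6P1 by -0.71 (adjusted p = 0.0479), 2 of 8 copies, where 1.58% of all genes were called.

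The count of a copy as a percentage of its parent's count in the same library does not depend on the library size. For MTATP6P1 it was 14%, 15% and 12.3% in vehicle libraries, 9%, 14.5% and 13.5% in low dose, 15.4%, 13.6% and 14.1% in medium dose, and 14.7%, 20.7% and 16.1% in high dose libraries. The groups overlapped, with high dose replicate 2 the highest and low dose replicate 1 the lowest. The mean was 13.8% ± 1.37 in vehicle and 17.1% ± 3.15 at the high dose (SD, n = 3), a difference of 0.30 on the log2 scale of the ratio (exact permutation test, two-sided, p = 0.2). Without high dose replicate 2 the difference was 0.16. With 3 libraries against 3, the smallest p this test can give is 0.1, so no ratio can pass 0.05.

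MTND2P28 was at 2.49%, 3.54% and 3.65% of MT-ND2 in vehicle libraries, 3.32%, 4.22% and 4.48% in low dose, 3.84%, 4.11% and 4.11% in medium dose, and 4.14%, 3.68% and 3.59% in high dose libraries. Only the medium dose was above vehicle in all libraries, by a log2 difference of 0.34 (exact permutation p = 0.1, the smallest possible), where 0.345% of all genes were above vehicle in their ratio to MT-ND2 and 86% were below. Without vehicle replicate 1, the lowest vehicle library, the medium dose difference was 0.16. The high dose difference was 0.26 (exact permutation p = 0.2), and 0.08 without vehicle replicate 1.

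MTCO1P12 was at 0.272%, 0.305% and 0.324% of MT-CO1 in vehicle libraries and at 0.24%, 0.497% and 0.243% at the high dose, where replicate 2 stood well above the rest. The log2 difference of the ratio at the high dose was 0.04 (exact permutation p = 1). It was -0.31 without high dose replicate 2, 0.22 without high replicate 1, 0.21 without high replicate 3, 0.09 without vehicle replicate 3 and -0.03 without vehicle replicate 1. MTND4P12 was at 0.181%, 0.101% and 0.0545% of MT-ND4 in vehicle libraries and at 0.0518%, 0.167% and 0.0771% at the high dose. These values overlapped over nearly their whole range, with a log2 difference of -0.19 at the high dose (exact permutation p = 0.7) and of -1.05 at the low dose (exact permutation p = 0.2). The high dose difference was -0.65 without high replicate 2 and -0.62 without vehicle replicate 3, and it turned to 0.24 without vehicle replicate 1 and to 0.19 without high replicate 1. It was -0.10 without high replicate 3, and the low dose difference was -0.63 without vehicle replicate 1.

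Across the 8 tested copies, 1 ratio at the high dose did not overlap with vehicle. This was MTCO1P28, which was above vehicle by 1.78 on the log2 scale (exact permutation p = 0.1), where 80.8% of all genes were above vehicle in their ratio to MT-CO1. It rests on 1, 9 and 8 counts in the vehicle libraries and 11, 3 and 11 at the high dose, and without vehicle replicate 1 the difference was 1.09. MTCO1P28 passed the filter through dosed libraries and not through vehicle, so its rise follows in part from the filter. Set against the other parents at the high dose, the share of all genes above vehicle was 93% for MT-ND4, 88.9% for MT-ATP6 and 88% for MT-CO2. It was 62.5% for MT-ND2, 47.1% for MT-ND1 and 37.3% for MT-ND5. At the medium dose the ratios of MTND2P28, described above, and MTND1P23 did not overlap with vehicle. MTND1P23 was below vehicle by a log2 difference of -0.70 (exact permutation p = 0.1), where 67.4% of all genes were below in their ratio to MT-ND1. At the low dose the ratio of MTND1P23 was below by -0.51 (exact permutation p = 0.1, 1.1% of all genes below), and that of MTCO2P12 by -1.39 (exact permutation p = 0.1, 1% of all genes below in their ratio to MT-CO2), with counts of 11.57, 6.06 and 1.01 for MTCO2P12. The MTCO2P12 difference was -0.77 without low replicate 3, the library with 1.01 counts, and this copy passed the filter mainly through vehicle.

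**Figure D5:**
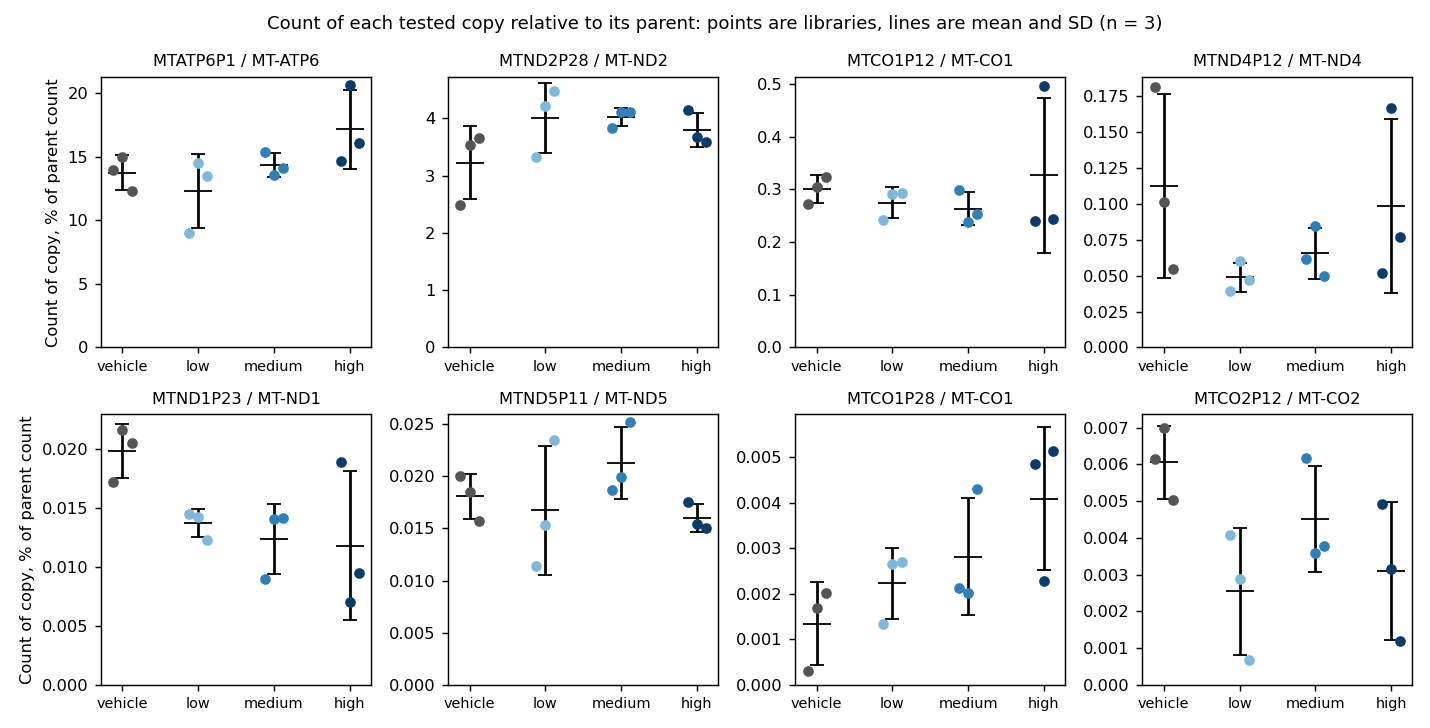
Count of each of the 8 tested copies as a percentage of its parent's count (y axes, linear from 0) by group (x axes); points are the 3 libraries of a group and black lines the mean and SD. MTATP6P1 stays between 9% and 20.7% of MT-ATP6 and MTND2P28 between 2.49% and 4.48% of MT-ND2, while the points of the 4 copies in the lower row rest on few counts.

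Summed over all copies, the counts were 1.52% ± 0.105 of the counts of the 13 chromosome M mRNAs in vehicle, 1.46% ± 0.186 with the low, 1.61% ± 0.125 with the medium and 1.72% ± 0.0985 with the high dose (SD, n = 3). The high dose libraries (1.63% to 1.82%) were all above the vehicle libraries (1.41% to 1.62%), a difference of 0.198 percentage points (exact permutation test, two-sided, p = 0.1, the smallest possible). High dose replicate 2 was at 1.82%, and replicates 1 and 3 were at 1.63% and 1.7%. No share over all genes was computed for this sum. In their ratio to single parents of the tested copies, 37.3% (MT-ND5) to 93% (MT-ND4) of all genes were above vehicle at the high dose. As a share of the whole library the copies went from 0.126% ± 0.00966 in vehicle to 0.0605% ± 0.0117 at the high dose.

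Apart from MTND4P12 and the 6 copies of the chromosome 1 block with 10 or more counts, the copies had low sums in all groups. The 12 copies with 10 or more counts on chromosomes 2, 4, 16, 17 and X summed to 1.11 ± 0.249 CPM in vehicle, 1.12 ± 0.0832 with the low, 1.29 ± 0.191 with the medium and 1.06 ± 0.206 with the high dose (SD, n = 3). These groups overlapped. The 6 copies of the chromosome 1 block summed to 1220 ± 114 CPM in vehicle, 1080 ± 124 with the low, 1130 ± 150 with the medium and 652 ± 145 with the high dose, and no high dose library (487 to 762 CPM) reached the vehicle range (1130 to 1350 CPM). The 71 copies with fewer than 10 counts summed to 1.08 ± 0.284 CPM in vehicle, 0.629 ± 0.242 with the low, 0.73 ± 0.03 with the medium and 0.624 ± 0.136 with the high dose. Their vehicle (0.758 to 1.27 CPM) and high dose libraries (0.523 to 0.779 CPM) overlapped. On chromosome 5, MTCYBP18 and MTND5P11 summed to 0.777 ± 0.0426 CPM in vehicle, 0.466 ± 0.0238 with the low, 0.695 ± 0.0848 with the medium and 0.449 ± 0.125 with the high dose. Their low dose (0.447 to 0.492 CPM) and high dose libraries (0.338 to 0.585 CPM) were all below vehicle (0.747 to 0.826 CPM). The medium dose libraries (0.614 to 0.783 CPM) overlapped vehicle. These sums rest on 57, 37, 54 and 30 counts. MTND4P12 of the same block, described above, was left out of them. No share over all genes was computed for the sums of this paragraph.

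The 13 copies with 10 or more counts that did not pass the filter had 10 to 56 counts in all. The highest was MTND1P8 on chromosome 16, with 13, 16, 16 and 11 counts in the vehicle, low, medium and high dose groups. MTCO3P12 had 16.4, 17, 16 and 5.9 counts, and MTCYBP18 had 15, 6, 17 and 7 counts. The remaining 10, with 10 to 30 counts each, lie on chromosomes 2, 4, 17 and X, and their identity to chromosome M was 67.69% to 77.41%. These 13 copies were not tested on their own, and they are named by their counts.

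Genes that transcribe and process mitochondrial RNA showed no call. Of 22 listed genes, among them the mitochondrial RNA polymerase POLRMT and the transcription factor TFAM, 21 were tested and 0 were called at any dose by edgeR or DESeq2, while 2, 2 and 1 of them had an unadjusted p under 0.05 in edgeR at the high, medium and low dose, where 20.1%, 11.7% and 7.95% of all genes did. Their log2 fold changes at the high dose were 0.01 to 0.24 (median 0.12, against 0.005 for all genes tested). Of 8 listed genes for partners of humanin, a peptide linked to the mitochondrial rRNA gene MT-RNR2, 4 were tested and 0 were called by edgeR or DESeq2, with an unadjusted p under 0.05 in edgeR for 0, 1 and 1 of them in the same order of doses, against the same shares of all genes.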

How the data were processed

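Gene-level expected counts of 12 HT29 libraries were used as deposited. Per the labels and the methods of the study, the authors prepared strand-specific libraries, sequenced pairs of 100 bases, trimmed and aligned the reads, and let RSEM estimate an expected count for each gene on GRCh38 with release 84 of the annotation. The submitters' processing notes name FastQC 0.11.9, Trim Galore 0.6.5, STAR 2.7.3a and RSEM 1.3.3. RSEM divides reads that match several genes, which bears on every copy described here. Symbols came from GENCODE release 44, which held 93.21% of the IDs in the table (98.11% of those with a count). Of 404 matching symbols, 391 were in the table.

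Expected counts were rounded to whole numbers. edgeR 4.0.16 (filterByExpr, TMM, robust quasi-likelihood fit, R 4.3.3) was run on all 12 libraries with group as the only term, and p-values were Benjamini-Hochberg adjusted over 15374 genes. Calls required a fold change over 1.5 besides an adjusted p below 0.05. Ratios to parents used counts plus 0.5 and an exact permutation test. Copies were aligned to chromosome M of hg38 with blastn 2.17.0. The code was tested on simulated data. DESeq2 1.42.0, other filters, scalings and samples served as alternatives.

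Copies with a mean of at least 1 CPM or a call were named by rule, with their parents and the genes around them. The rule, the members and the gene lists were chosen with earlier results of these data known. Library totals of 15941255 to 33866644 make counts under about 10 per library imprecise, and no 2 libraries were identical within sampling noise.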

Additional observations from a re-analysis of the deposited data

Results flagged for a closer look

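The effects of 2 doses on a copy differed in 3 cases. MTND2P28 was higher than vehicle at the medium dose and, without passing the test, lower at the high dose, and the difference between the high and the medium dose was -1.33 on the log2 scale (adjusted p = 0.00444 by edgeR on all 12 libraries). The difference between the high and the low dose of MTND2P28 was -0.86 (adjusted p = 0.0272 by edgeR), and that of MTATP6P1 was -0.71 (adjusted p = 0.0479 by edgeR). All 3 libraries of the high dose were below all 3 of the other dose in each case. The mitochondrial rRNA share of the libraries also differed between these doses. It was 11.272% to 12.517% at the high, 1.96% to 2.177% at the medium and 0.982% to 1.144% at the low dose. Its part in the differences of the copies was not tested.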

How the results depend on the processing

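Limits: copy counts come from RSEM's division of shared reads, 4 of the 8 tested copies are below 1 CPM, and the exact permutation test of the ratios cannot go below p = 0.1. MTATP6P1 at the high dose was called in 19 of 20 alternatives (log2 fold change -1.13 to -0.81), and was lost when only vehicle and high dose libraries were fitted (adjusted p = 0.0741 by edgeR). MTND4P12 at the high dose was called in 10 of 20 (-2.46 to -1.33) and MTND2P28 at the medium dose in 13 of 20 (0.85 to 1.12). Fitting vehicle and high dose alone left 0 copies and 6 chromosome M genes called. With no filter on low counts, 0 copies were called at the medium dose by edgeR (MTND2P28 had an adjusted p of 0.0995) and 1 copy in the dose trend, since more genes were tested. Other causes of a changed count were not tested. Counting every copy with 10 or more counts, 5 ratios at the medium dose did not overlap with vehicle: MTND2P28, MTND4P9 and MTCYBP18 were above (0.345%, 66% and 63% of all genes were above in their ratio to the same parent) and MTND1P23 and MTATP6P26 below (67.4% and 0.917% were below), where MTND4P9, MTCYBP18 and MTATP6P26 are untested copies with 23, 45 and 12 counts. Leaving out 1 library at a time gave 1 to 4 copies at the high dose, 0 to 1 at the medium dose, 1 to 4 in the trend and 1 to 2 chromosome M genes at the medium dose, and 1 to 4, 2 to 4 and 2 to 4 ratios apart from vehicle at the high, medium and low dose. The value of 4 copies was reached without high dose replicate 2.

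Same-numbered libraries were no more alike than others after removal of group means. Their correlations were -0.264 to 0.139 (4 of 18 over 0.1) and those of others -0.24 to 0.312 (7 of 36). Such correlations cannot exclude that the libraries were prepared in matched sets. With the replicate number as a block, 3 copies were called at the high dose (with MTCO2P12), 0 at the medium dose (MTND2P28 0.96, adjusted p = 0.0688 by edgeR) and 2 in the trend, and MT-CO1 at the low dose went from 0.01 to -0.01 on the log2 scale.

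Among values near 0 that were not called, the sign turned without 1 library for MT-ATP6 (range without 1 library -0.37 to 0.12), MT-CO1 (-0.15 to 0.10) and MT-ND2 (-0.16 to 0.42) at the low dose, for the trend of MTND2P28 (-0.11 to 0.10), and for the log2 ratios to the parent of MTCO1P12 (-0.31 to 0.22) and MTND4P12 (-0.65 to 0.24) at the high dose, MTATP6P1 at the medium (-0.01 to 0.13) and low dose (-0.32 to 0.03) and MTND5P11 at the low dose (-0.43 to 0.09). The other scalings moved the median of all genes by less than 0.1 on the log2 scale.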
